A study of Saccharomyces cerevisiae with 8 samples.

Results

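The genes of ergosterol synthesis and its regulation in Saccharomyces cerevisiae were followed across 3 strains that all lacked IRE1. The set held 30 genes: 9 of the mevalonate branch, 3 that lead to squalene and lanosterol, 12 that turn lanosterol into ergosterol, 2 electron carriers, 2 sterol esterification enzymes and 2 transcription factors. They were chosen by gene symbol, as the probes whose systematic name belongs to the symbol, and the rule itself uses no measured value. All 30 were found among the 6576 systematic names on the array, each with 1 probe, and all 30 were well above background on all 8 arrays. IRE1 encodes the endoplasmic reticulum sensor of unfolded proteins. The Δire1 strain (n = 3) carried this deletion alone. In SSZ1OEΔire1 (n = 2), SSZ1, which encodes an Hsp70-like protein of the ribosome, was overexpressed in addition. SSZ1OEΔire1Δscj1 (n = 3) further lacked SCJ1, the gene of a DnaJ-type co-chaperone in the endoplasmic reticulum lumen. No strain with IRE1 was among the groups, and strain background, the promoter behind the overexpression and the deletion cassettes are not given in the sources used here. Cells were in early log phase, at an OD600 of 0.2 to 0.3, in synthetic medium at 30 °C.

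Ergosterol is the main sterol of the yeast plasma membrane. Its synthesis starts from acetyl-CoA, runs through mevalonate and the isoprenoid farnesyl pyrophosphate to squalene, and needs oxygen and haem to turn squalene into lanosterol and lanosterol into ergosterol. Most of the later enzymes sit in the endoplasmic reticulum membrane. The transcription factors Upc2 and Ecm22 activate many ERG genes when sterols run low, and Are1 and Are2 store surplus sterol as esters.

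Levels are log2 spot signals relative to the 75th percentile of each array, so 0 means as bright as that percentile, and a level of one probe is not compared with that of another. A member's level averaged 7 to 10 spots per array, with a median standard error over spots of 0.016. On each array, 90.5% to 95.9% of spots exceeded background by the scanner's criterion, and 0 were saturated. The 75th percentile of the signal was higher on the SSZ1OEΔire1Δscj1 arrays (9041 to 10016) than on the other arrays (5038 to 7152). SSZ1 stood at 2.97 ± 0.15 (SD, n = 3) in Δire1, 5.84 ± 0.32 (SD, n = 2) in SSZ1OEΔire1 and 5.37 ± 0.16 (SD, n = 3) in SSZ1OEΔire1Δscj1. IRE1 was not well above background on any array, and SCJ1 was not on any SSZ1OEΔire1Δscj1 array, as their labels have it. Mating-type genes differed between the strains: 6 of 6 a-specific genes were lower in SSZ1OEΔire1Δscj1 than in Δire1 past the test, and their summed level was 2.87 to 2.94 in Δire1, 2.60 to 2.99 in SSZ1OEΔire1 and 1.92 to 2.33 in SSZ1OEΔire1Δscj1. The summed level of 4 alpha-specific genes was −2.85 to −2.62, −2.61 to −2.24 and −1.80 to −1.65 in the same order, and no list had a gene at background throughout a group. These 4 genes did not move alike. Against Δire1, STE3 was higher past the test in SSZ1OEΔire1 (2.12) and SSZ1OEΔire1Δscj1 (3.07). MF(ALPHA)1 passed only in the latter (0.43 and 2.08). MF(ALPHA)2 (−0.40 and −0.42) and SAG1 (−0.14 and 0.15) did not pass in either. The part of mating type and of array brightness in the results below was not tested. Each value is an average over a culture, so fewer cells with a transcript and less transcript per cell cannot be told apart. Each sample has its own source code, and the labels call the samples independent but do not name separate cultures. The p-values thus measure only how far these samples spread, and that spread may be technical.

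**Figure D1:**
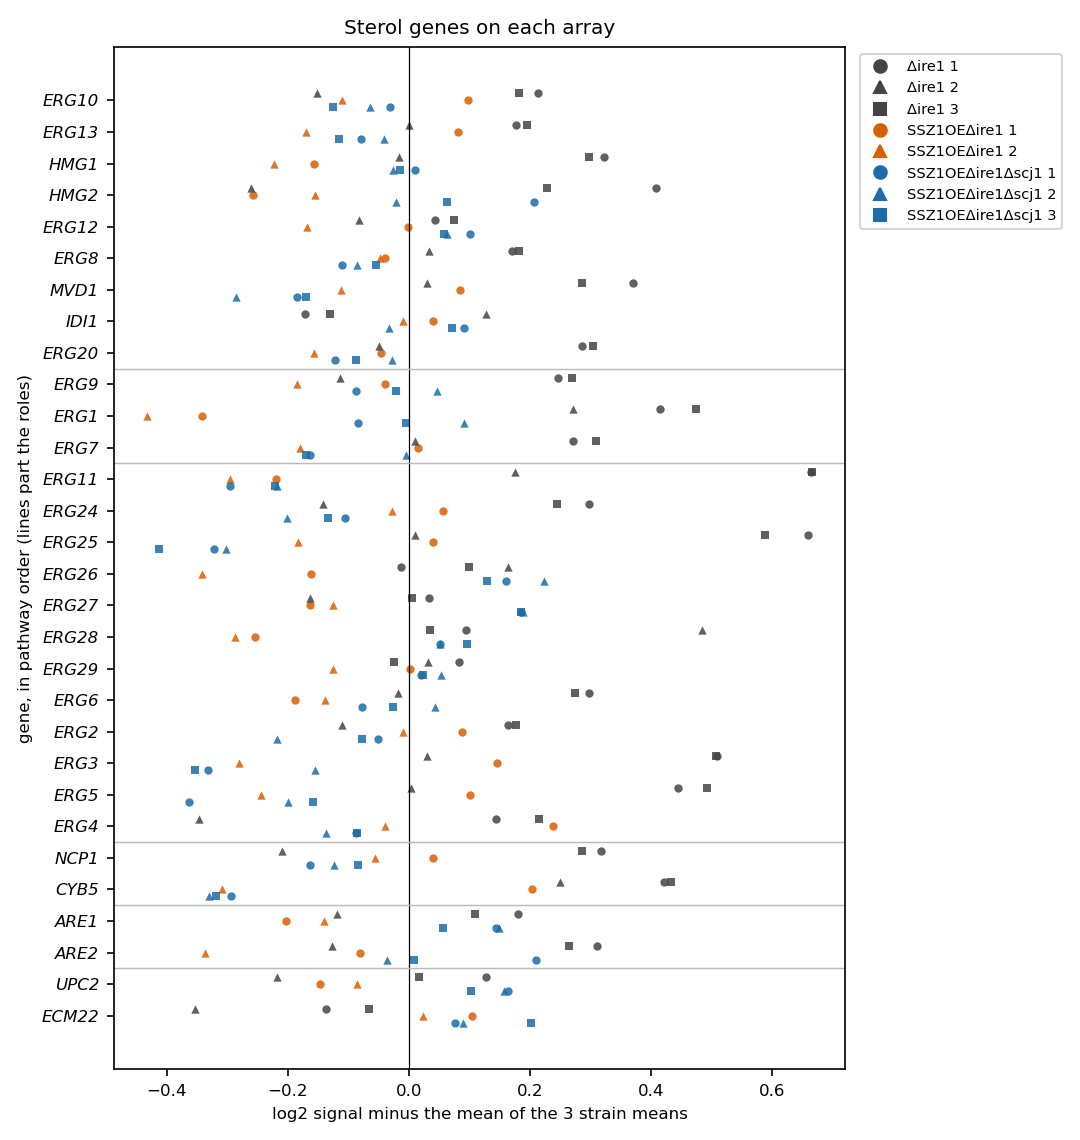
Level of each of the 30 sterol genes on each array, as log2 signal minus the mean of the 3 strain means (x axis), with genes in pathway order (y axis); each point is 1 array, colours are strains, shapes are replicates and lines part the roles. Replicates 1 and 3 of Δire1 lie to the right for most genes, while replicate 2 of Δire1 lies nearer to the arrays of the other strains.

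In the Δire1 strain the sterol genes were not equal on the 3 arrays. Replicate 2 held the lowest of the 3 values for 26 of the 30 members (86.7%), against 49.3% of all genes tested. Its median difference from the mean of the other replicates was −0.30 over the members and −0.039 over all genes. The members ranged from −0.61 (ERG25) to 0.42 (ERG28) in this difference, and IDI1, ERG26 and ERG28 were highest on replicate 2. Replicates 1 and 3 differed by a median of 0.040 in absolute value over the members. A member's SD had a median of 0.18 over the Δire1 arrays, 0.076 over those of SSZ1OEΔire1 and 0.048 over those of SSZ1OEΔire1Δscj1, against 0.13, 0.068 and 0.10 for all genes. Every comparison with Δire1 therefore carries this array. The Δire1 arrays differed in the marker gene LEU2 as well, at 0.48, −0.021 and 2.73 on replicates 1, 2 and 3, against 2.43 ± 0.0075 (SD, n = 2) in SSZ1OEΔire1 and 2.27 ± 0.18 (SD, n = 3) in SSZ1OEΔire1Δscj1. Replicates 1 and 3, close in the sterol genes, are thus apart in LEU2, and the labels do not say whether the Δire1 samples are 1 strain. Of the other marker genes, URA3 was lower (−0.94, adjusted p = 0.0121) and TRP1 higher (0.53, adjusted p = 0.007) in SSZ1OEΔire1Δscj1 than in Δire1. The part of these markers in the results was not tested.

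**Figure D2:**
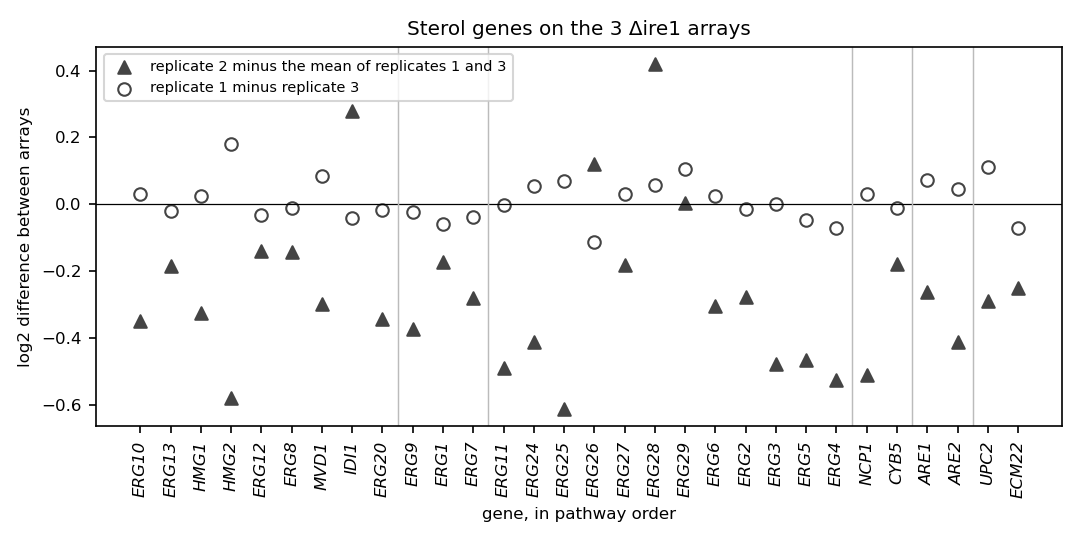
Differences between the 3 Δire1 arrays for each sterol gene (y axis, log2 difference; x axis, genes in pathway order): triangles are replicate 2 minus the mean of replicates 1 and 3, and circles are replicate 1 minus replicate 3. Most triangles lie below 0, with a median of −0.30, while the circles lie near 0.

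SSZ1 overexpression in the absence of IRE1 was read from SSZ1OEΔire1 against Δire1. ERG1, the squalene epoxidase, and ERG11, the lanosterol 14-alpha-demethylase, fell by 41.5% and 40.9% in signal, and no member was higher past the test. In limma's test with Benjamini-Hochberg adjustment over 6244 genes, 0 members were higher and 2 lower at 0.05, against a background of 7.48% of all genes higher and 3.88% lower (11.4% in either direction). At an unadjusted p under 0.05 there were 1 higher and 10 lower, against 17.3% and 11.3% of all genes. Of the 30 differences, 27 were below 0, against 45.6% of all genes, and their median was −0.24 against 0.026. The 2 strains' arrays did not overlap for 1 member in the higher and 9 in the lower direction, where 26.9% and 19.5% of all genes did the same. With Δire1 replicate 2 left out, 18 members were lower (9.47% of all genes) and 0 higher. Without Δire1 replicate 1 or 3 only ERG1 was lower past the test, against 1.51% and 1.11% of all genes. The fit without SSZ1OEΔire1 replicate 2 holds 1 array of that strain. Its median member difference was −0.17, with ERG1 at −0.73 and ERG11 at −0.72.

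The strain that also lacked SCJ1 differed from Δire1 in more members, as it did in more of all genes (38.3% against 11.4% in SSZ1OEΔire1). ERG8, MVD1, ERG1, ERG11, ERG25, ERG3, ERG5 and CYB5 fell, by 13.6% to 41.1% in signal, and ERG27 and ECM22 rose. These 8 lower and 2 higher members of 30 stand against a background of 16.9% of all genes lower and 21.3% higher (38.3% in either direction). Of the differences, 22 were below 0 (47.9% of all genes), with a median of −0.20 against 0.019. Arrays did not overlap for 10 members in the lower and 2 in the higher direction, against 23.3% and 27.3% of all genes. When Δire1 replicate 2 was dropped, 19 members were lower and 3 higher (23.5% and 27.2% of all genes). Without Δire1 replicate 1, without Δire1 replicate 3 and without SSZ1OEΔire1Δscj1 replicate 1, there were 4, 4 and 5 lower members, against 10.3%, 9.63% and 9.99% of all genes. Of the 2 higher calls, 0 remained without Δire1 replicate 1 or any SSZ1OEΔire1Δscj1 array, where 15.0% to 18.1% of all genes were higher. Without Δire1 replicate 3, 1 remained, against 13.4% of all genes. The fits without an SSZ1OEΔire1 array hold 1 array of that strain and left the differences as they were, at 0.23 for ERG27 and 0.31 for ECM22.

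Between the SSZ1-overexpressing strains, ERG1, ERG26 and ERG27 were higher in SSZ1OEΔire1Δscj1 past the test, and no member was lower past it. These 3 higher and 0 lower members compare with 6.28% and 5.57% of all genes (11.9% in either direction). At an unadjusted p under 0.05 the members counted 6 higher and 0 lower, against 16.1% and 15.7% of all genes. The median member difference was 0.025, against −0.0046 over all genes, and 13 of 30 differences were below 0, against 50.8%. Arrays did not overlap for 12 members in the higher and 7 in the lower direction, against 29.5% and 29.5% of all genes. The higher count was 6 without Δire1 replicate 2, where 12.3% of all genes were higher, and 0 or 1 without any other single array, where 0.016% to 6.2% were. No Δire1 array enters the differences between the overexpressing strains. Leaving 1 out changes only the spread estimate shared by the groups and the adjustment. The overexpressing strains lie in different rows of the slide, so strain and row cannot be told apart from their arrays alone. With the slide row as a block, 0 members passed, against 0.032% of all genes. The comparisons share arrays, 2 of them the Δire1 arrays, so their values are set side by side and no overlap between them is drawn.

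**Figure D3:**
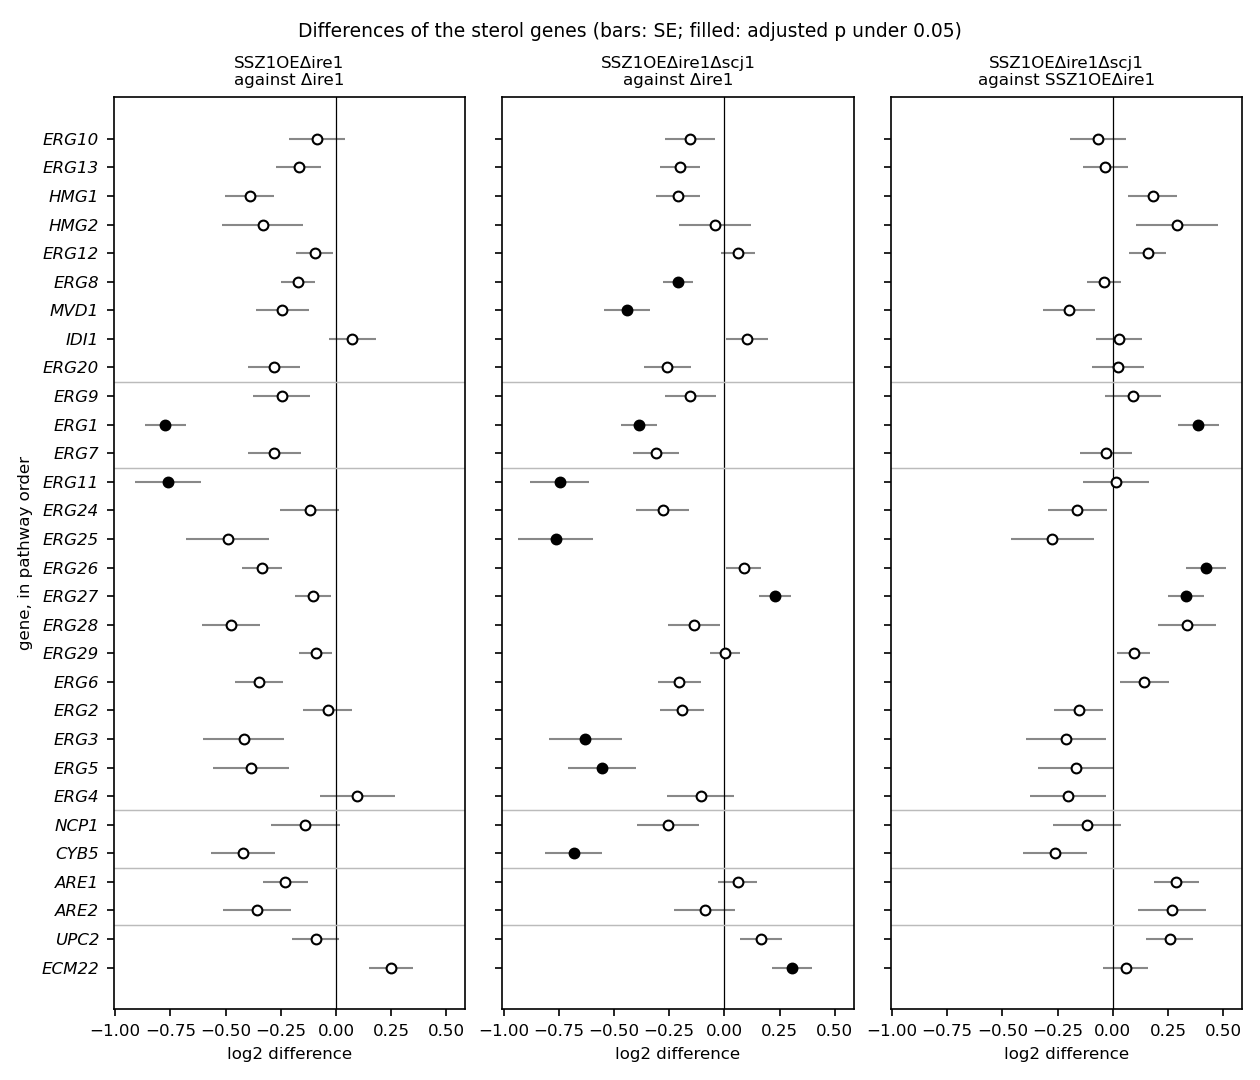
Log2 difference of each of the 30 sterol genes (x axis, with SE bars) in the 3 comparisons between strains, with genes in pathway order (y axis); filled points have an adjusted p under 0.05. The comparisons with Δire1 lie mostly to the left of 0, with medians of −0.24 and −0.20, and the comparison of the overexpressing strains lies on both sides, with a median of 0.025.

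Most members are bright probes, and in SSZ1OEΔire1Δscj1 against Δire1 68.5% of the other bright genes also had a difference below 0. On average over the arrays, 24 members lay above the 75th percentile and 6 below it. In SSZ1OEΔire1 against Δire1, the median over the 24 was −0.28, against −0.044 over 1617 other genes above the percentile, of which 7.24% were lower past the test. The medians in SSZ1OEΔire1Δscj1 against Δire1 were −0.21 and −0.15, and 8 of the 24 members and 36.0% of the other bright genes were lower. The count of lower members there was thus near that of other bright genes, and the part of brightness was not tested. Scaling the arrays on spike-in probes moved the median of all genes to 0.13, 0.43 and 0.30 in the 3 comparisons, and the members moved with it. Relative to that median the members stood at −0.27, −0.22 and 0.030 with either scaling, because each shifts all genes of an array alike. Quantile normalization gave −0.19, −0.0064 and 0.16. With spike-in scaling, 0 members were lower past the test in any comparison. Of all genes, 0.336% were lower in SSZ1OEΔire1 against Δire1, 0.705% in SSZ1OEΔire1Δscj1 against Δire1 and 0.176% between the overexpressing strains. In the same order, 21, 6 and 0 members had a difference below 0 with this scaling.

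In the mevalonate branch, 0 of 9 genes passed the test in SSZ1OEΔire1 against Δire1, where 11.4% of all genes did. Of the 9 differences, 8 were below 0 (45.6% of all genes), with a median of −0.17. In SSZ1OEΔire1Δscj1, 2 of 9 were lower than in Δire1, against 16.9% of all genes. MVD1 (YNR043W), mevalonate pyrophosphate decarboxylase, stood at 0.99, 0.65 and 0.91 on the Δire1 arrays, 0.71 and 0.51 on the SSZ1OEΔire1 arrays, and 0.44, 0.34 and 0.45 on the SSZ1OEΔire1Δscj1 arrays. All SSZ1OEΔire1Δscj1 values lay below all others, while the arrays of the remaining strains overlapped. The difference from Δire1 was −0.44 (SE 0.106, adjusted p = 0.0151), a fall of 26.4% in signal; without Δire1 replicate 1 or 3 the adjusted p was 0.0521 or 0.0575, with the slide row as a block 0.072 and with spike-in scaling 0.911 (−0.028). In the fit without Δire1 replicate 2, the MVD1 difference was −0.54 (adjusted p = 0.00333), and that of SSZ1OEΔire1 went from −0.24 (adjusted p = 0.227) to −0.34 (adjusted p = 0.0376). ERG8 (YMR220W), phosphomevalonate kinase, stood at 0.84, 0.70 and 0.85 in Δire1, 0.63 and 0.62 in SSZ1OEΔire1 and 0.56, 0.58 and 0.61 in SSZ1OEΔire1Δscj1. Every Δire1 value was above every other value, and the difference in SSZ1OEΔire1Δscj1 was small, −0.21 (SE 0.0674, adjusted p = 0.0416). It missed the threshold when any single array other than Δire1 replicate 2 was left out (adjusted p from 0.0696 to 0.15), with quantile normalization (0.0701), with the slide row as a block (0.119) and with slide row 2 alone (0.114). Without Δire1 replicate 2 it was −0.26 (adjusted p = 0.00774), and ERG8 in SSZ1OEΔire1 went from −0.17 (adjusted p = 0.183) to −0.22 (adjusted p = 0.0359).

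HMG-CoA reductase, the rate-limiting enzyme of the branch, is encoded by the paralogues HMG1 and HMG2. HMG1 (YML075C) stood at 1.62, 1.28 and 1.60 in Δire1, at 1.14 and 1.07 in SSZ1OEΔire1 and at 1.31, 1.27 and 1.28 in SSZ1OEΔire1Δscj1. Both SSZ1OEΔire1 values were the lowest of the 8, and the difference from Δire1 was −0.39 (SE 0.11, adjusted p = 0.0619). It was −0.50 (adjusted p = 0.00539) without Δire1 replicate 2, when the SSZ1OEΔire1Δscj1 difference went from −0.21 (adjusted p = 0.128) to −0.32 (adjusted p = 0.00448). HMG2 (YLR450W) stood at 0.83, 0.16 and 0.65 in Δire1, 0.16 and 0.26 in SSZ1OEΔire1 and 0.62, 0.40 and 0.48 in SSZ1OEΔire1Δscj1. The Δire1 values spanned those of both other strains, and the difference of −0.33 in SSZ1OEΔire1 (SE 0.185, adjusted p = 0.283) did not pass with all arrays; it was −0.53 (adjusted p = 0.0174) without Δire1 replicate 2. ERG10, ERG13, ERG12, IDI1 and ERG20, which encode acetoacetyl-CoA thiolase, HMG-CoA synthase, mevalonate kinase, isopentenyl pyrophosphate isomerase and farnesyl pyrophosphate synthase, differed by −0.28 to 0.16 over the 3 comparisons. With all arrays none of these 5 passed (lowest adjusted p 0.0892, ERG20 in SSZ1OEΔire1Δscj1 against Δire1). With Δire1 replicate 2 left out, 4 of the 5 passed in that comparison: ERG10 (−0.27, adjusted p = 0.028), ERG13 (−0.26, 0.0395), ERG20 (−0.37, 0.0045) and IDI1 (0.20, 0.0402). Of all genes, 50.7% passed in that fit and comparison. ERG20 then also passed in SSZ1OEΔire1 (−0.40, adjusted p = 0.0124). IDI1 had its lowest mean in Δire1, as ECM22 did and no other member.

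Of the enzymes that make squalene and lanosterol, squalene epoxidase was the member that fell most under SSZ1 overexpression. ERG1 (YGR175C) stood at 1.73, 1.58 and 1.79 in Δire1, at 0.97 and 0.88 in SSZ1OEΔire1 and at 1.23, 1.40 and 1.31 in SSZ1OEΔire1Δscj1. The 3 strains did not overlap, with SSZ1OEΔire1 lowest and SSZ1OEΔire1Δscj1 between. The difference of SSZ1OEΔire1 from Δire1 was −0.77 (SE 0.0925, adjusted p = 0.00523), 41.5% less signal. That of SSZ1OEΔire1Δscj1 was −0.39 (SE 0.0827, adjusted p = 0.0101), and the difference between the overexpressing strains was 0.39 (SE 0.0925, adjusted p = 0.0392). The first missed the threshold without SSZ1OEΔire1 replicate 2 (−0.73, adjusted p = 0.0637), with slide row 1 alone (−0.73, adjusted p = 0.0807) and with spike-in scaling (−0.67, adjusted p = 0.158). The second was −0.47 (adjusted p = 0.0567) with slide row 2 alone and 0.027 with spike-in scaling. The last passed only with all arrays or without Δire1 replicate 2, among the fits that left out a single array (adjusted p from 0.0629 to 0.185 otherwise), and missed with the slide row as a block (0.26, adjusted p = 0.459). When Δire1 replicate 2 was dropped, the differences of ERG1 from Δire1 were −0.83 (adjusted p = 0.00414) and −0.44 (adjusted p = 0.00433). ERG9, squalene synthase, and ERG7, lanosterol synthase, did not pass in any comparison with all arrays. Their means were 1.55, 1.31 and 1.40 for ERG9 and 2.06, 1.79 and 1.76 for ERG7 in Δire1, SSZ1OEΔire1 and SSZ1OEΔire1Δscj1, and for ERG7 all SSZ1OEΔire1Δscj1 values lay below all Δire1 values (−0.31, adjusted p = 0.0514). In the fit without Δire1 replicate 2, both were lower than in Δire1, ERG9 with differences of −0.37 in SSZ1OEΔire1 (adjusted p = 0.0211) and −0.28 in SSZ1OEΔire1Δscj1 (0.0192), and ERG7 with −0.37 (0.0356) and −0.40 (0.0103).

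Among the 12 genes from lanosterol to ergosterol, 1 was lower in SSZ1OEΔire1 and 4 were lower and 1 higher in SSZ1OEΔire1Δscj1 than in Δire1. Of all genes, 3.88% were lower in the former, and 16.9% lower and 21.3% higher in the latter. Of the other bright genes, 36.0% were lower in the latter. ERG11 (YHR007C), the cytochrome P450 that is the target of azole antifungals, stood at 3.61, 3.12 and 3.61 in Δire1, 2.73 and 2.65 in SSZ1OEΔire1 and 2.65, 2.73 and 2.73 in SSZ1OEΔire1Δscj1. All arrays of both overexpressing strains lay below all Δire1 arrays. The differences from Δire1 were −0.76 (SE 0.15, adjusted p = 0.0215) in SSZ1OEΔire1 and −0.75 (SE 0.134, adjusted p = 0.00575) in SSZ1OEΔire1Δscj1, and the overexpressing strains differed by 0.013 (SE 0.15, adjusted p = 0.964). The call in SSZ1OEΔire1 was lost without SSZ1OEΔire1 replicate 1 (adjusted p = 0.0867) or 2 (0.163), and without Δire1 replicate 1 (0.0605) or 3 (0.0669). Of the slide-row and scaling alternatives, the slide row as a block (0.0669), slide row 1 alone (0.175) and spike-in scaling (0.125) ended it, and the difference lay between −0.92 and −0.65 in all 20 alternatives. The call in SSZ1OEΔire1Δscj1 was lost with spike-in scaling alone (−0.33, adjusted p = 0.158) among 20 alternatives. Without Δire1 replicate 2 the ERG11 differences were −0.92 (adjusted p = 0.00347) and −0.91 (adjusted p = 0.000712).

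The genes of the C-4 demethylation complex, which strips the methyl groups from the sterol C-4 position, did not move one way. ERG25 (YGR060W), the C-4 methyl oxidase, stood at 3.86, 3.21 and 3.79 in Δire1, 3.24 and 3.01 in SSZ1OEΔire1 and 2.88, 2.90 and 2.78 in SSZ1OEΔire1Δscj1. All SSZ1OEΔire1Δscj1 values were the lowest, and Δire1 replicate 2 lay among the SSZ1OEΔire1 values. The difference in SSZ1OEΔire1Δscj1 was −0.76 (SE 0.169, adjusted p = 0.0112) and that in SSZ1OEΔire1 was −0.49 (SE 0.188, adjusted p = 0.137). They were −0.97 (adjusted p = 0.000987) and −0.70 (adjusted p = 0.0067) without Δire1 replicate 2. Of the alternatives, spike-in scaling ended the call in SSZ1OEΔire1Δscj1 (−0.35, adjusted p = 0.147).

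ERG26 and ERG27, which encode the C-3 sterol dehydrogenase and the 3-keto sterol reductase of that complex, had their highest means in the strain without SCJ1. ERG26 (YGL001C) stood at 1.78, 1.96 and 1.89 in Δire1, 1.63 and 1.45 in SSZ1OEΔire1 and 1.95, 2.02 and 1.92 in SSZ1OEΔire1Δscj1. Both SSZ1OEΔire1 values were below all others, while Δire1 and SSZ1OEΔire1Δscj1 overlapped. The overexpressing strains differed by 0.42 (SE 0.0897, adjusted p = 0.0288), and SSZ1OEΔire1 differed from Δire1 by −0.34 (SE 0.0897, adjusted p = 0.0533). ERG27 (YLR100W) stood at 2.47, 2.27 and 2.44 in Δire1, 2.27 and 2.31 in SSZ1OEΔire1, and 2.62 on each of the SSZ1OEΔire1Δscj1 arrays. The strain without SCJ1 was highest on every array, by 0.33 over SSZ1OEΔire1 (SE 0.0811, adjusted p = 0.0418) and 0.23 over Δire1 (SE 0.0726, adjusted p = 0.0415). The ERG27 calls were lost when any single array other than Δire1 replicate 2 was left out, with adjusted p from 0.06 to 0.246 against SSZ1OEΔire1 and 0.0575 to 0.106 against Δire1. The ERG26 call was lost without either SSZ1OEΔire1 array, Δire1 replicate 3, or SSZ1OEΔire1Δscj1 replicate 1 or 2 (adjusted p from 0.0569 to 0.135). The SSZ1OEΔire1 and SSZ1OEΔire1Δscj1 arrays lie in different rows of the slide, and with the row as a block the differences were 0.40 for ERG26 (adjusted p = 0.322) and 0.26 for ERG27 (adjusted p = 0.427). The ERG27 difference from Δire1 was 0.18 with the row as a block (adjusted p = 0.282) and 0.13 with median scaling (0.203). With Δire1 replicate 2 left out, the calls stood at 0.17 for ERG27 against Δire1 (adjusted p = 0.0332) and, against SSZ1OEΔire1, at adjusted p = 0.0133 for ERG27 and 0.0177 for ERG26.

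ERG28 (YER044C), the scaffold of the C-4 complex, stood at 1.70, 2.09 and 1.64 in Δire1, 1.36 and 1.32 in SSZ1OEΔire1 and 1.66, 1.66 and 1.71 in SSZ1OEΔire1Δscj1. SSZ1OEΔire1 was lowest on both arrays, and Δire1 replicate 2 was highest of all. The differences were −0.48 in SSZ1OEΔire1 against Δire1 (SE 0.132, adjusted p = 0.0594) and 0.34 between the overexpressing strains (SE 0.132, adjusted p = 0.128). When Δire1 replicate 2 was dropped, they were −0.34 (adjusted p = 0.0127) and 0.34 (adjusted p = 0.0142). ERG29, ERG24 (C-14 sterol reductase) and ERG6 (C-24 methyltransferase) did not pass with all arrays, with differences between −0.35 and 0.14. In the fit without Δire1 replicate 2, ERG24 and ERG6 were lower than in Δire1, with differences of −0.26 (adjusted p = 0.0375) and −0.45 (0.00824) in SSZ1OEΔire1 and of −0.42 (0.00308) and −0.31 (0.00747) in SSZ1OEΔire1Δscj1.

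At the end of the pathway, the desaturases were lower in the strain without SCJ1. ERG3 (YLR056W), the C-5 desaturase, stood at 2.93, 2.45 and 2.92 in Δire1, 2.56 and 2.14 in SSZ1OEΔire1 and 2.08, 2.26 and 2.06 in SSZ1OEΔire1Δscj1. ERG5 (YMR015C), the C-22 desaturase and a further cytochrome P450, stood at 1.18, 0.74 and 1.23, at 0.84 and 0.50, and at 0.38, 0.54 and 0.58 in the same order. For both genes SSZ1OEΔire1Δscj1 lay below Δire1 on every array, and SSZ1OEΔire1 replicates lay far apart and overlapped both other strains. Against Δire1 the SSZ1OEΔire1Δscj1 differences were −0.63 for ERG3 (SE 0.164, adjusted p = 0.0207) and −0.55 for ERG5 (SE 0.153, adjusted p = 0.0255). The SSZ1OEΔire1 differences were −0.42 (adjusted p = 0.184) and −0.39 (adjusted p = 0.188). Both calls were lost without Δire1 replicate 1 or 3 or SSZ1OEΔire1Δscj1 replicate 1, that of ERG3 also without SSZ1OEΔire1Δscj1 replicate 3 and that of ERG5 also without replicate 2 (adjusted p from 0.0548 to 0.0868). The slide row as a block ended both (adjusted p = 0.058 for ERG3 and 0.0557 for ERG5), as did spike-in scaling (0.379 and 0.547), and quantile normalization ended that of ERG3 (0.0566). Without Δire1 replicate 2 the differences were −0.79 (adjusted p = 0.00483) and −0.71 (0.00446) in SSZ1OEΔire1Δscj1, and those of SSZ1OEΔire1 passed, at −0.58 (0.0361) and −0.54 (0.0298). ERG2 (C-8 isomerase) and ERG4 (C-24(28) reductase, the last step) had means of 3.35, 3.32 and 3.16 and of 1.78, 1.87 and 1.67 in Δire1, SSZ1OEΔire1 and SSZ1OEΔire1Δscj1 and did not pass in any comparison with all arrays. Both were lower in SSZ1OEΔire1Δscj1 against Δire1 without Δire1 replicate 2, at −0.29 (ERG2, adjusted p = 0.0187) and −0.28 (ERG4, 0.0409).

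**Figure D4:**
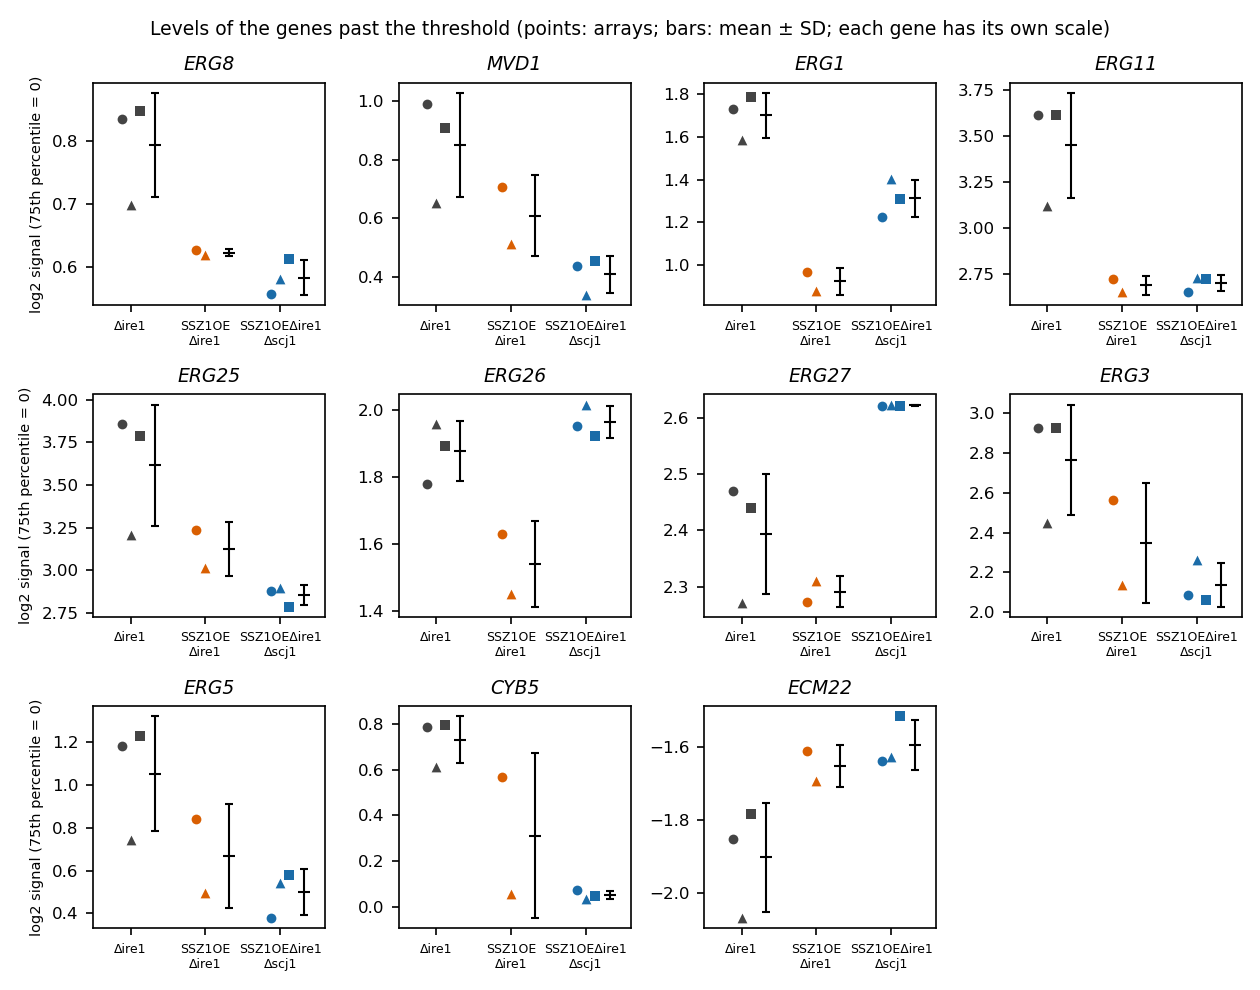
Level of the 11 sterol genes past the threshold in at least 1 comparison (y axis, log2 signal relative to the 75th percentile of the array, with its own scale per gene) by strain (x axis); points are arrays and bars are the mean ± SD of the strain. ERG11 is alike in both overexpressing strains (means 2.69 and 2.70), ERG1 is lowest in SSZ1OEΔire1 (0.92), and CYB5 differs widely between the 2 SSZ1OEΔire1 arrays.

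The electron carriers feed the oxygen-dependent steps: cytochrome b5 (CYB5) the desaturase and C-4 oxidase steps, and the P450 reductase (NCP1) the P450 enzymes and squalene epoxidase. CYB5 (YNL111C) stood at 0.79, 0.61 and 0.80 in Δire1, 0.57 and 0.06 in SSZ1OEΔire1 and 0.07, 0.03 and 0.05 in SSZ1OEΔire1Δscj1. SSZ1OEΔire1 replicate 1 was near the Δire1 arrays and replicate 2 among the SSZ1OEΔire1Δscj1 arrays. The difference in SSZ1OEΔire1Δscj1 was −0.68 (SE 0.129, adjusted p = 0.00674), which among the alternatives missed the threshold with spike-in scaling alone (−0.27, adjusted p = 0.292). That in SSZ1OEΔire1 was −0.42 (SE 0.144, adjusted p = 0.104) and −0.68 (adjusted p = 0.0294) without SSZ1OEΔire1 replicate 1. NCP1 had means of 2.10, 1.96 and 1.85 in Δire1, SSZ1OEΔire1 and SSZ1OEΔire1Δscj1 and did not pass with all arrays. With Δire1 replicate 2 left out, NCP1 was lower, at −0.31 (adjusted p = 0.0209) in SSZ1OEΔire1 and −0.43 (0.00274) in SSZ1OEΔire1Δscj1, and CYB5 in the latter stood at −0.74 (0.00722).

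Are1 and Are2 are the acyl-CoA:sterol acyltransferases that make steryl esters, and neither gene passed in a comparison with all arrays. ARE1 (YCR048W) stood at −0.62, −0.92 and −0.69 in Δire1, −1.003 and −0.94 in SSZ1OEΔire1 and −0.66, −0.65 and −0.74 in SSZ1OEΔire1Δscj1. ARE2 (YNR019W) stood at −1.65, −2.08 and −1.69, at −2.04 and −2.29, and at −1.75, −1.99 and −1.95 in the same order. For both genes the SSZ1OEΔire1 arrays were below all SSZ1OEΔire1Δscj1 arrays, by means of 0.29 (ARE1, SE 0.101, adjusted p = 0.0996) and 0.27 (ARE2, SE 0.155, adjusted p = 0.274). Against Δire1 the SSZ1OEΔire1 differences were −0.23 (adjusted p = 0.185) and −0.36 (adjusted p = 0.179). When Δire1 replicate 2 was dropped, they were −0.32 (adjusted p = 0.0213) and −0.50 (adjusted p = 0.0298). The ARE1 difference between the overexpressing strains stayed at 0.29, and its adjusted p was then 0.0239. No Δire1 array enters that difference, so only the spread estimate shared by the groups and the adjustment changed.

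Of the paralogous zinc-cluster regulators, ECM22 rose in SSZ1OEΔire1Δscj1 against Δire1 and UPC2 did not pass with all arrays and the main scaling. ECM22 (YLR228C) stood at −1.85, −2.07 and −1.78 in Δire1, −1.61 and −1.69 in SSZ1OEΔire1 and −1.64, −1.63 and −1.52 in SSZ1OEΔire1Δscj1. All arrays of the overexpressing strains lay above all Δire1 arrays. The difference in SSZ1OEΔire1Δscj1 was 0.31 (SE 0.0908, adjusted p = 0.0322), and that in SSZ1OEΔire1 was 0.25 (SE 0.101, adjusted p = 0.156). The call was lost without either SSZ1OEΔire1 array (adjusted p = 0.0516), Δire1 replicate 1 (0.0649) or any SSZ1OEΔire1Δscj1 array (0.0605 to 0.0947). It was also lost with the slide row as a block (0.19, adjusted p = 0.314) with slide row 2 alone (adjusted p = 0.254), with quantile normalization (0.20, adjusted p = 0.127) and with median scaling (0.21, adjusted p = 0.126). In the fit without Δire1 replicate 2, it was 0.22 (adjusted p = 0.032). UPC2 (YDR213W) stood at −2.70, −3.04 and −2.81 in Δire1, −2.97 and −2.91 in SSZ1OEΔire1 and −2.66, −2.67 and −2.72 in SSZ1OEΔire1Δscj1. The overexpressing strains did not overlap, with a difference of 0.26 (SE 0.106, adjusted p = 0.147), while Δire1 overlapped both. Without Δire1 replicate 2 that difference was the same, at adjusted p = 0.0313, since only the shared spread estimate and the adjustment changed. The UPC2 differences from Δire1 were −0.091 in SSZ1OEΔire1 (adjusted p = 0.619) and 0.17 in SSZ1OEΔire1Δscj1 (adjusted p = 0.203). The latter was −0.027 with quantile normalization and 0.58 (adjusted p = 0.0346) with spike-in scaling.

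Sterol genes outside synthesis were read from lists of 69 genes, of which 67 were tested. In SSZ1OEΔire1 against Δire1, 3 rose and 4 fell, against 7.48% and 3.88% of all genes. Medians were −0.0062 over the lists and 0.026 over all genes. In SSZ1OEΔire1Δscj1 against Δire1, 9 rose and 9 fell, against 21.3% and 16.9% of all genes (medians −0.081 and 0.019). Between the overexpressing strains 4 rose and 3 fell, against 6.28% and 5.57% of all genes (medians −0.027 and −0.0046). In sterol transport, PDR16, a phosphatidylinositol transfer protein and a target of the drug-resistance factors Pdr1 and Pdr3, rose against Δire1 in SSZ1OEΔire1, by 1.06 (SE 0.104, adjusted p = 0.00332), and in SSZ1OEΔire1Δscj1, by 1.18 (SE 0.0934, adjusted p = 0.00044). Its values were 0.65 to 0.76 in Δire1, 1.76 and 1.79 in SSZ1OEΔire1 and 1.73 to 2.07 in SSZ1OEΔire1Δscj1, so that Δire1 did not overlap with either. HES1, an oxysterol-binding protein homologue, rose in SSZ1OEΔire1Δscj1 by 1.08 over Δire1 (adjusted p = 0.000486) and 0.87 over SSZ1OEΔire1 (adjusted p = 0.00955). PRY2, a secreted sterol-binding protein, rose there by 0.93 (adjusted p = 0.00282) and 1.17 (adjusted p = 0.00984). Without SSZ1OEΔire1 replicate 1 the differences of HES1 and PRY2 from SSZ1OEΔire1 were 0.87 and 0.98, from 1 array of that strain. With the slide row as a block both calls were lost, at 0.94 (adjusted p = 0.188) and 1.06 (adjusted p = 0.197). OSH6, an oxysterol-binding protein homologue that carries phosphatidylserine, rose by 0.45 and 0.36 against Δire1 in SSZ1OEΔire1 and SSZ1OEΔire1Δscj1 (adjusted p = 0.037 and 0.0221). LAM4, a sterol transporter of membrane contact sites, rose by 0.50 in SSZ1OEΔire1Δscj1 (adjusted p = 0.00937), and SIP3, its relative, fell by 0.42 and 0.34 (adjusted p = 0.0305 and 0.0166). NPC2, a vacuolar sterol-binding protein, was lower in SSZ1OEΔire1Δscj1 than in SSZ1OEΔire1 (−0.32, adjusted p = 0.0434).

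Genes of sterol ester and acetyl turnover moved in both directions. ATF2, the acetyltransferase that acetylates sterols for export, stood at −1.05 to −1.03 in Δire1, −2.08 and −2.32 in SSZ1OEΔire1 and −2.21 to −2.05 in SSZ1OEΔire1Δscj1. Against Δire1 it fell by 1.15 (SE 0.0957, adjusted p = 0.00214) and 1.11 (SE 0.0856, adjusted p = 0.00044) in the 2 strains. SAY1, the deacetylase that reverses this step, rose by 0.34 and 0.49 (adjusted p = 0.0283 and 0.00216). YEH1, a steryl ester hydrolase, rose by 0.49 in SSZ1OEΔire1Δscj1 (adjusted p = 0.0186). The PDR16 and ATF2 calls against Δire1 were kept under each of the 20 alternatives run.

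Of the haem genes and partners of the P450 enzymes, DAP1, which binds haem and stabilises Erg11, rose by 0.65 in SSZ1OEΔire1Δscj1 against Δire1 (SE 0.122, adjusted p = 0.00657). HEM1, HEM3 and HEM12, which encode enzymes of haem synthesis, fell there by 0.38, 0.32 and 0.32 (adjusted p = 0.0297, 0.0182 and 0.0178), and HEM12 fell by 0.36 in SSZ1OEΔire1 (adjusted p = 0.0421). HAP1, the haem-responsive activator of many ERG genes, fell by 0.63 with SSZ1 overexpression (SE 0.1, adjusted p = 0.0113), and by 0.34 in the strain without SCJ1 (SE 0.0898, adjusted p = 0.0225). Its level was −0.36, −0.44 and −0.30 in Δire1, −0.87 and −1.12 in SSZ1OEΔire1 and −0.72, −0.61 and −0.77 in SSZ1OEΔire1Δscj1, with no overlap between strains. The HAP1 call in SSZ1OEΔire1 was lost with slide row 1 alone (−0.60, adjusted p = 0.133) and with spike-in scaling (−0.53, adjusted p = 0.341). Without SSZ1OEΔire1 replicate 2 the HAP1 difference was −0.51, from 1 array of that strain. SUT2, a relative of the sterol uptake regulator SUT1, and TIR3, a cell wall mannoprotein of anaerobic growth, fell by 0.43 and 0.49 in SSZ1OEΔire1Δscj1 against Δire1 (adjusted p = 0.0131 and 0.0312).

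In the branches that leave the pathway at isoprenoids, RER2, a cis-prenyltransferase of dolichol synthesis, was lower in SSZ1OEΔire1Δscj1 than in Δire1 (−0.33, adjusted p = 0.00857) and than in SSZ1OEΔire1 (−0.49, adjusted p = 0.0133). MOD5, which transfers an isopentenyl group to tRNA, was higher (0.40 and 0.63, adjusted p = 0.00889 and 0.0118). Of 8 genes linked to the degradation of HMG-CoA reductase and squalene epoxidase, 0 passed against Δire1 in SSZ1OEΔire1 or SSZ1OEΔire1Δscj1. Of all genes, 11.4% and 38.3% did. Between the overexpressing strains UBC7, a ubiquitin-conjugating enzyme, was higher in SSZ1OEΔire1Δscj1 (0.30, adjusted p = 0.0411) and CUE1, its membrane anchor, lower (−0.37, adjusted p = 0.0401). Many of the calls under 0.5 in size were lost when a single array was left out: OSH6, SIP3, SAY1 and HEM12 in SSZ1OEΔire1, and UBC7, CUE1 and NPC2 between the overexpressing strains, each without either SSZ1OEΔire1 array. RER2 and MOD5 between those strains were lost without SSZ1OEΔire1 replicate 1 (adjusted p = 0.131 and 0.115). In SSZ1OEΔire1Δscj1 against Δire1, leaving out at least 1 array ended the calls of TIR3, HAP1, SUT2, SIP3, OSH6, YEH1, HEM1, HEM3 and HEM12 (adjusted p up to 0.103). Those of HES1, PRY2, PDR16, ATF2, SAY1, LAM4, RER2, MOD5 and DAP1 were kept. With the slide row as a block, LAM4 (0.42, adjusted p = 0.101), RER2 (−0.27, 0.108) and MOD5 (0.45, 0.0513) missed the threshold in this comparison.

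**Figure D5:**
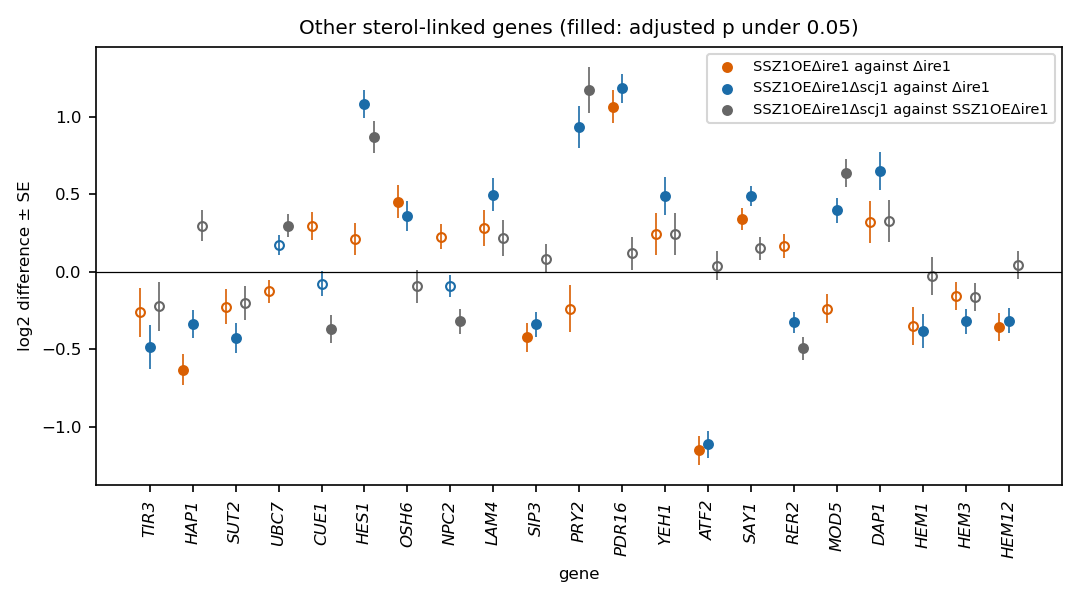
Log2 difference (y axis, with SE bars) of the 21 other sterol-linked genes past the threshold in at least 1 comparison (x axis), coloured by comparison; filled points have an adjusted p under 0.05. PDR16 and ATF2 differ by more than 1 from Δire1 in both overexpressing strains, and HES1 and PRY2 are highest in SSZ1OEΔire1Δscj1.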

How the data were processed

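The 8 samples were hybridised to single-colour Agilent arrays of a shared slide, from 100 ng of RNA made into Cy3-labelled cRNA. The authors' software for spot intensity values was Agilent Feature Extraction, version 10.7.1.1 in the submitters' processing notes. Per the file headers, the processed signal is background-subtracted and was not scaled between arrays. A deposited matrix of the authors' log2 values matched log2 processed signal minus the 75th percentile and the probe's median (per array r = 1; column medians −0.034 to 0.011) and served as an alternative; its scale is not stated.

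Values here were means of the log2 processed signal over the spots of a probe, without outlier spots (1.10% to 1.57%), minus the 75th percentile over non-control probes. A gene was tested if over 0.5 of its probe's spots were well above background on all arrays of any group. Where a systematic name had several probes, the brightest was used. RefSeq symbols (R64) matched 5903 of 6576 names. limma 3.58.1 in R 4.3.3 (package data.table at 1.17.8) fitted 3 group means over 8 arrays, with eBayes and two-sided Benjamini-Hochberg adjusted p-values over 6244 genes at 0.05. The fit was tested on simulated data. The number of arrays limits the precision. A percent change in signal is computed from the log2 difference.

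Members, lists and roles were chosen with earlier results of these data known. All members are named; those past the threshold, the regulators, the paralogue pairs and the 3 largest differences per comparison are given on every array, and other sterol genes are named where they passed. COD1 was not matched, and DAN1 was not well above background on all arrays of any group. Groups came from the genotype labels. Slide row 1 held SSZ1OEΔire1 and Δire1 replicates 1 and 2, and row 2 the rest. Samples of the same replicate number did not deviate together (correlations −0.038 to 0.21 over genes), so numbers were not used as pairs. Alternatives were scaling (quantile, median, 7 spike-in probes), normexp with offset 50 on median spot signals, filters, probe averaging, outlier spots, the deposited table, slide row and replicate as blocks, single slide rows (chosen after seeing the data) and leaving out each array. Promoter and protein sequences were not analysed here, and no coordinates are given because array design and gene table differ in build.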

Additional observations from a re-analysis of the deposited data

How the results depend on the processing

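Counts of members past the threshold depended on the scaling, on the slide row and on single arrays. In SSZ1OEΔire1 against Δire1 the 2 lower members (3.88% of all genes) became 6 with median scaling (5.54%), 0 with spike-in scaling (0.336%), 5 with normexp (4.5%), 1 with the slide row as a block (1.11%), 1 with the replicate block (1.3%), 0 within slide row 1 (0.24%), and 0 to 18 when single arrays were left out (0.192% to 9.47%). In SSZ1OEΔire1Δscj1 against Δire1 the 2 higher members (21.3% of all genes) became 1 with quantile normalization (15.1%), 0 with median scaling (15.8%), 3 with spike-in scaling (32.1%), 0 with the slide row as a block (11.2%), 1 with the replicate block (18.9%), 0 within slide row 2 (12.3%), and 0 to 3 without single arrays (13.4% to 27.2%). The 8 lower (16.9%) became 14 with median scaling (25.2%), 0 with spike-in scaling (0.705%), 4 with the slide row as a block (5.89%), and 4 to 19 without single arrays (9.63% to 23.5%). The median difference of −0.20 became −0.069 with quantile normalization and 0.22 with spike-in scaling. Between the overexpressing strains the 3 higher members (6.28%) became 0 with spike-in scaling (2.37%), 0 with the slide row as a block (0.016%), 0 with the replicate block (5.69%), and 0 to 6 without single arrays (0.016% to 12.3%), and the median of 0.025 became 0.33 with spike-in scaling and −0.12 with the slide row as a block. The share of higher among all calls moved from 65.9% to 47.3% (quantile), 51.7% (median) and 89.8% (spike-in) in SSZ1OEΔire1, and from 55.8% to 40.6%, 38.6% and 97.9% in SSZ1OEΔire1Δscj1, each against Δire1, and from 53.0% to 93.1% (spike-in) between the overexpressing strains. With normexp the last was 39.4%. Calls over all genes fell from 740 to 2 in that comparison with the slide row as a block (1 higher and 1 lower), in which these strains lie in separate rows.

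Spike-in scaling turned the sign of ERG27 (0.0023) and UPC2 (0.014) in SSZ1OEΔire1 against Δire1. In SSZ1OEΔire1Δscj1 against Δire1 it turned HMG1 (0.20), HMG2 (0.37), ERG8 (0.20), ERG1 (0.027), ERG28 (0.28), ARE2 (0.32), HAP1 (0.076), SIP3 (0.073), RER2 (0.086), HEM1 (0.032), HEM3 (0.095) and HEM12 (0.098). Between the overexpressing strains it turned ERG8 (0.27), MVD1 (0.11), ERG25 (0.035), ERG3 (0.096), ERG5 (0.14) and CYB5 (0.048). Spike-in scaling moved the median of all genes too, by construction of the scaling. In SSZ1OEΔire1Δscj1 against Δire1, median scaling gave −0.015 for ERG26 and −0.043 for ARE1, quantile normalization −0.011 for ARE1 and −0.027 for UPC2, and the slide row as a block and slide row 2 alone both 0.031 for ERG28. Between the overexpressing strains, quantile normalization gave 0.003 for ERG8, median scaling −0.029, the slide row as a block −0.23 and the replicate block −0.034 for ERG11, and the slide row as a block −0.12 for ECM22. Leaving out single arrays gave −0.24 to 0.099 for HMG2, −0.22 to 0.0020 for ERG28 and −0.028 to 0.12 for ARE1 in SSZ1OEΔire1Δscj1 against Δire1, and −0.024 to 0.050 for ERG11, −0.43 to 0.00067 for ERG3 and −0.34 to 0.0037 for ERG5 between the overexpressing strains. The cause was not tested. The other 13 members changed sign in 12 of 260, 21 of 260 and 20 of 247 fits. The replicate number was used as a block only here, since numbers did not pair the samples. It ended the calls of ERG11 in SSZ1OEΔire1 (−0.71, adjusted p = 0.0625), of ERG8 (0.0807) and ERG27 (0.0856) in SSZ1OEΔire1Δscj1 against Δire1, and of ERG1 (0.0937), ERG26 (0.0676) and ERG27 (0.0947) between the overexpressing strains. Signal over background limited no member, since all 30 were well above background on all arrays.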
